A study of Mus musculus with 16 samples.

Results

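The BCL2 family proteins decide at the outer mitochondrial membrane whether a cell commits to apoptosis. The genes described here are 10 members of the family, taken as a list of symbols and found by gene identifier among the 20622 genes of the total RNA tables. They comprise 4 pro-survival members (*Bcl2*, *Bcl2l1*, *Bcl2l2* and *Mcl1*) and 6 pro-death members (*Bak1*, *Bid*, *Bad*, *Bok*, *Bcl2l11* and *Bmf*), and all 10 were present in both kinds of table. Ribosome-protected fragments (RPFs, the stretches of mRNA shielded by translating ribosomes) and cytoplasmic total RNA were sequenced from 2 mouse cell lines, KM_NTC and KM_4A2cr, with 4 replicates of each kind per line and 16 libraries in all. KM cells grew out of lung tumours of a genetically engineered mouse that carried *Rosa26* LSL-MYC on both alleles, so both lines share a MYC transgene driven from *Rosa26*. In the tumour model, Cre recombinase was given by an adenovirus whose surfactant protein C promoter aims it at alveolar type II cells. Both lines were transduced with a lentiviral Cas9 vector and selected in puromycin, KM_NTC with a non-targeting guide and KM_4A2cr with a guide to the coding region of *Eif4a2*, the gene of the RNA helicase eIF4A2. KM_4A2cr is a pool of 4 clones without eIF4A2 protein. The cells were untreated. Replicates are separate experiments on different days with the same 2 lines, so the tests measure the spread between days and not between independently derived lines.

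In healthy cells the pro-survival proteins bind and hold the pro-death members. BAK1 and its relatives are effectors, which form pores in the outer membrane when they are active. BID, BAD, BIM (encoded by *Bcl2l11*) and BMF share with the rest of the family only the BH3 domain, a short helix with which they activate effectors or occupy the groove of pro-survival proteins, and BID links death receptors to mitochondria after cleavage by caspase-8. MCL1 is a very short-lived protein, and its amount therefore depends closely on ongoing translation. The comparison of both lines addresses whether loss of eIF4A2 changes the mRNA level or the ribosome occupancy of these regulators.

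The RPF libraries held 4512403 to 9621848 counts and the total RNA libraries 5350920 to 9312624, with replicate 4 the shallowest of each line and kind. Replicate 4 also stood apart in levels: in RPFs, *Eif4a2* was at 389 and 346 CPM (counts per library scaled to a common size) there against 51.0 to 122 in replicates 1 to 3. Genes were called at an adjusted p below 0.1. Of the 1062 genes called in RPFs 679 were higher, against 482 of 1619 with library sizes as the only scaling and 534 of 998 with upper-quartile factors. In total RNA 473 of 667 called genes were higher, against 262 of 1130 and 325 of 541. As a check of the labels, *Eif4a2* RPFs were lower in KM_4A2cr in 4 of 4 pairs (log2 fold change -0.49, standard error (SE) 0.15, edgeR adjusted p = 0.0941), a call that was lost without replicate 1, 2 or 3. *Eif4a2* total RNA did not pass the test (-0.18, edgeR adjusted p = 0.504). A small edit in the coding region does not have to lower read counts, so these values are a weak check. All 7 epithelial markers reached 1 TPM (a measure of transcript level corrected for length) and summed to between 4491 and 6298 TPM in each library. Of 6 alveolar type II markers 2 reached 1 TPM. That list summed to between 29.1 and 35.3 TPM in KM_NTC and between 37.15 and 48.7 TPM in KM_4A2cr. Its genes *Sftpc* and *Sftpb* were listed at 0 in every library. The paper names surfactant protein C, encoded by *Sftpc*, among the markers by which it assessed the identity of its cells. Fibroblast markers summed to at most 3.03 TPM and endothelial markers to at most 1.94 TPM. Of 6 leukocyte markers only *Cd68* reached 1 TPM, and the list summed to between 33.4 and 221 TPM in KM_NTC and 37.7 and 155 TPM in KM_4A2cr, while *Cd3e* was at 0.

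TPM values, which account for transcript length, allow levels to be set side by side between genes. The pro-survival genes *Bcl2l1*, encoding BCL-XL, and *Mcl1* had the highest levels of the 10 members, at 112 ± 23.1 and 106 ± 31.4 TPM (SD, n = 8 libraries). The ranges of these genes overlapped. Together they made up 60.2% of the summed TPM of the 10 members, and the 4 pro-survival members made up 66.6%. *Bak1* (35.1 ± 11.5 TPM) and *Bid* (27.4 ± 13.7 TPM) were the most abundant pro-death members. The lowest *Mcl1* value, 59.0 TPM, lay above the highest *Bak1* value, 51.5 TPM, which separated the 2 leading genes from the rest. *Bcl2l11* (24.9 ± 4.82 TPM), *Bad* (19.1 ± 4.89 TPM), *Bok* (13.0 ± 5.47 TPM), *Bcl2l2* (13.0 ± 1.92 TPM) and *Bcl2* (9.99 ± 5.14 TPM) followed. Each of these overlapped the ranges of its neighbours in that order. *Bmf* was scarce, with 0.53 to 4.97 TPM. These shares and ranks cover the 10 listed members and not the whole family. Outside the list, *Bax* was at 96.5 ± 20.9 TPM in KM_NTC and 87.6 ± 13.8 TPM in KM_4A2cr (SD, n = 4). *Bcl2l15* was at 117 and 115 TPM and *Pmaip1* at 34.7 and 46.0 TPM in the same lines. The BH3-like gene *Bnip3l* was at 128 and 118 TPM and *Bnip3* at 78.2 and 82.0 TPM.

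**Figure D1:**
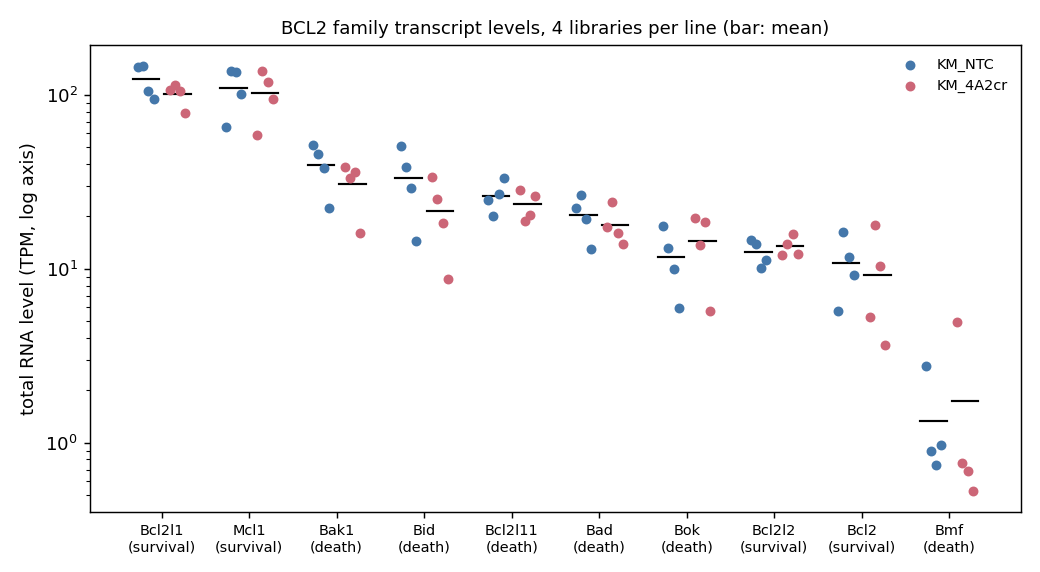
Total RNA level of the 10 BCL2 family members in TPM on a log axis, ordered by mean, with 1 point per library, blue for KM_NTC and red for KM_4A2cr (n = 4 each) and a black bar at the mean. *Bcl2l1* and *Mcl1* lie between 59.0 and 147 TPM in all libraries, above every value of the other 8 members.

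*Bid* (ENSMUSG00000004446.13) RPFs fell in KM_4A2cr cells. The gene was the only one of the 8 members tested in RPFs that passed the threshold of an adjusted p below 0.1, in a table where 10.3% of the 10291 tested genes passed it and 3.72% passed it as lower. In KM_NTC, *Bid* RPFs were at 37.5, 31.6, 25.2 and 18.2 CPM in replicates 1 to 4. In KM_4A2cr, they were at 29.1, 20.3, 13.2 and 9.42 CPM. Every KM_4A2cr value was below the KM_NTC value of the same replicate, while the lines overlapped when pairs were ignored. The mean was 28.1 ± 8.27 CPM in KM_NTC and 18.0 ± 8.67 CPM in KM_4A2cr (SD, n = 4), resting on 1003 and 535 counts. The log2 fold change was -0.69 (SE 0.15, 95% confidence interval -1.03 to -0.35, adjusted p = 0.0370 from the quasi-likelihood test of edgeR, Benjamini-Hochberg adjusted). The pairs had log2 ratios of -0.36, -0.63, -0.92 and -0.93. Of all tested genes, 16.0% were lower in 4 of 4 pairs. Among the 383 genes called lower in RPFs, 155 had a lower log2 fold change than *Bid*, and the median of these 383 was -0.64. The call was lost when replicate 2 (edgeR adjusted p = 0.209) or replicate 3 (adjusted p = 0.284) was left out, with log2 fold changes of -0.72 and -0.58. In these fits 123 and 32 genes of the whole table were called, in place of 1062. It was also lost for *Bid* without the replicate block (-0.64, edgeR adjusted p = 0.998), where no gene of the whole table passed.

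*Bid* mRNA fell as well. Total RNA of *Bid* was at 58.1, 37.1, 33.9 and 20.3 CPM in KM_NTC replicates 1 to 4. In KM_4A2cr it was at 40.6, 26.2, 22.9 and 16.4 CPM. Each pair was again lower in KM_4A2cr and the lines overlapped. The log2 fold change was -0.48 (SE 0.12, 95% confidence interval -0.76 to -0.21, edgeR adjusted p = 0.0682), with pair ratios of -0.51, -0.50, -0.56 and -0.31. It was the only one of the 10 members called in total RNA, where 6.13% of 10880 genes were called and 1.78% were called lower. The call was lost with DESeq2 (-0.49, adjusted p = 0.132), at a threshold of 0.05, without the replicate block (-0.49, edgeR adjusted p = 0.999) and without replicate 1, 2 or 3 (adjusted p = 0.230, 0.349 and 0.422 by edgeR). Without replicate 4 the adjusted p was 0.00138 by edgeR. The whole table moved too, from 667 called genes to 207, 140 and 63 without replicate 1, 2 or 3 and to 3260 without replicate 4. As these are bulk libraries, fewer cells that express *Bid* and less *Bid* RNA per cell cannot be told apart.

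**Figure D2:**
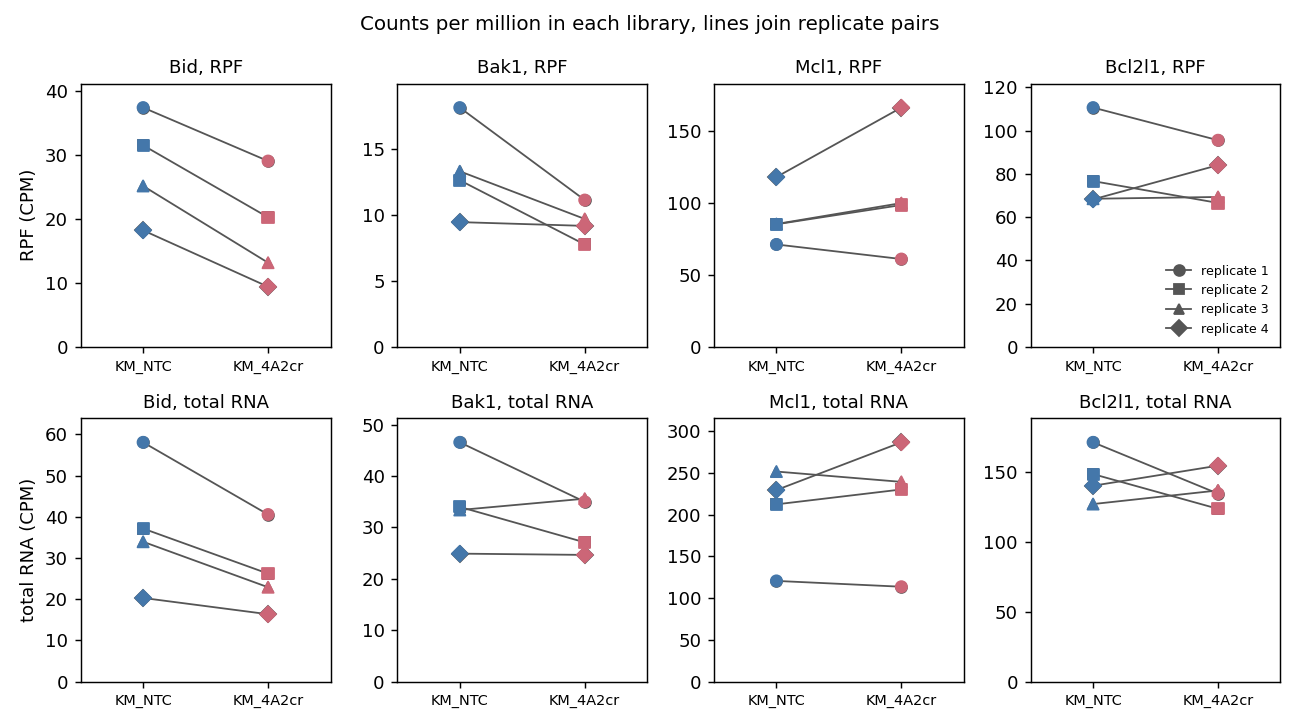
CPM of *Bid*, *Bak1*, *Mcl1* and *Bcl2l1* in RPFs (top) and total RNA (bottom), with a line and a marker shape for each replicate pair from KM_NTC (blue) to KM_4A2cr (red) and the axis starting at 0. All 4 lines of *Bid* slope down in both kinds of library, from a mean of 28.1 to 18.0 CPM in RPFs, while those of *Mcl1* and *Bcl2l1* go in both directions.

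*Bak1* (ENSMUSG00000057789.15), which encodes a pore-forming effector, had the next lowest RPF log2 fold change and missed the threshold. Its RPFs were at 18.1, 12.6, 13.3 and 9.44 CPM in KM_NTC and at 11.1, 7.75, 9.68 and 9.16 CPM in KM_4A2cr. The pairs had log2 ratios of -0.69, -0.68, -0.45 and -0.04, so that all were lower and replicate 4 hardly differed. The log2 fold change was -0.51 (SE 0.17, 95% confidence interval -0.89 to -0.14, edgeR adjusted p = 0.109) on 469 and 258 counts. With 4 other settings it passed the threshold. The adjusted p was 0.0545 with library sizes as the only scaling, 0.0937 with upper-quartile factors, 0.0897 without a filter on low counts and 0.0110 without replicate 4, all by edgeR. Without replicate 4, however, 3469 of 10376 genes were called in RPFs in place of 1062. *Bak1* total RNA was 34.7 ± 8.92 CPM in KM_NTC and 30.6 ± 5.53 CPM in KM_4A2cr, with a log2 fold change of -0.17 (SE 0.14, edgeR adjusted p = 0.546) and 3 of 4 pairs lower.

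The sequences just upstream of the transcription start of *Bid* and *Bak1* are shown because these 2 members had the lowest RPF log2 fold changes. They are the 250 bases before the start on the minus strand, from RefSeq on the GRCm38.p6 build, at chr6:120916825-120917074 for *Bid* and at chr17:27028628-27028877 for *Bak1*. Capitals mark matches to 3 motifs searched on both strands, namely CACGTG (the E-box that MYC binds), GGGCGG (the GC box) and TATAAA (the TATA box).
Bid: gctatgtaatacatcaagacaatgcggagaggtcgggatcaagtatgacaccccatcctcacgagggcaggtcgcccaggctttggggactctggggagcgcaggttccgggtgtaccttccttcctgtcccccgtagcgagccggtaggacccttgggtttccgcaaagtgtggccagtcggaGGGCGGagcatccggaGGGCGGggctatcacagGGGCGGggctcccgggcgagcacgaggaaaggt
Bak1: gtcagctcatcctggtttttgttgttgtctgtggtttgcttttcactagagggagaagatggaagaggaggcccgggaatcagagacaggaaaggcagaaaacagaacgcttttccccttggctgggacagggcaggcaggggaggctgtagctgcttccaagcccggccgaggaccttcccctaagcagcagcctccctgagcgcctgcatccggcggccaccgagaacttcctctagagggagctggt
The *Bid* window held 3 GC boxes and neither of the other motifs, with a GC content of 63.6%. No motif matched in the *Bak1* window, with a GC content of 58.4%. Among 32851 promoters of that length, 32.7% held a GC box, 6.02% the E-box and 12.4% the TATA box, and the median GC content was 52.4%. These matches describe the letters only.

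The other pro-death members did not pass the test. *Bad*, a BH3-only gene whose protein is held inactive by phosphorylation, had RPFs of 11.2 ± 3.22 CPM in KM_NTC and 9.73 ± 3.19 CPM in KM_4A2cr (log2 fold change -0.22, 95% confidence interval -0.65 to 0.20). *Bcl2l11* RPFs were 5.59 ± 2.40 and 6.03 ± 4.22 CPM (log2 fold change -0.01, 95% confidence interval -0.51 to 0.49). Their total RNA gave log2 fold changes of 0.06 and 0.05, with intervals of -0.31 to 0.43 and -0.23 to 0.32. *Bok*, a relative of *Bak1* whose protein is turned over by the proteasome, and *Bmf* did not pass the filter on low RPF counts, with 23 and 19 counts over the 4 KM_NTC libraries and 31 and 11 over the KM_4A2cr libraries. Without that filter their RPF log2 fold changes were 0.74 (SE 0.59, edgeR adjusted p = 0.586) and -0.48 (SE 0.84, edgeR adjusted p = 0.811). In total RNA, *Bok* was higher in KM_4A2cr in 4 of 4 pairs. It stood at 11.8, 7.19, 6.22 and 4.22 CPM in KM_NTC and at 12.8, 8.27, 13.2 and 5.99 CPM in KM_4A2cr. Its log2 fold change of 0.45 (SE 0.20, edgeR adjusted p = 0.265) missed the threshold, and 12.4% of all tested genes were higher in 4 of 4 pairs. *Bmf* total RNA was low, with 85 and 92 counts per line, and its log2 fold change was 0.26 (95% confidence interval -0.39 to 0.91).

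Of the 4 pro-survival members, 0 passed the test in RPFs and 0 in total RNA, by edgeR or DESeq2, and 0 had an unadjusted p under 0.05 by edgeR. *Mcl1* RPFs were at 71.2, 85.3, 85.5 and 118 CPM in KM_NTC replicates 1 to 4 and at 61.1, 98.7, 100.0 and 166 CPM in KM_4A2cr. Replicate 1 was lower and replicates 2 to 4 were higher in KM_4A2cr, and both lines overlapped. The log2 fold change was 0.18 (SE 0.14, 95% confidence interval -0.15 to 0.50, edgeR adjusted p = 0.494) in RPFs and 0.07 (-0.22 to 0.36) in total RNA. *Bcl2l1* RPFs were at 111, 76.6, 68.5 and 68.2 CPM in KM_NTC and at 95.5, 66.5, 69.3 and 84.0 CPM in KM_4A2cr. Its log2 fold change was -0.03 (SE 0.13, 95% confidence interval -0.33 to 0.27) in RPFs and -0.09 (-0.39 to 0.20) in total RNA, with 2 of 4 pairs in each direction in both. These were the best-measured members, with 2138 to 2833 RPF counts per line.

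*Bcl2*, the founding member of the family, and *Bcl2l2*, encoding BCL-W, had few RPF counts in both lines, with 99 and 80 RPF counts per KM_NTC set of 4 libraries and 80 and 69 per KM_4A2cr set. Their RPF log2 fold changes were -0.13 (95% confidence interval -0.73 to 0.48) and 0.07 (-0.54 to 0.68) and the interval of *Bcl2* still held a change as large as that of *Bid*. In total RNA they were -0.18 (-0.57 to 0.21) and 0.25 (-0.11 to 0.61).

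**Figure D3:**
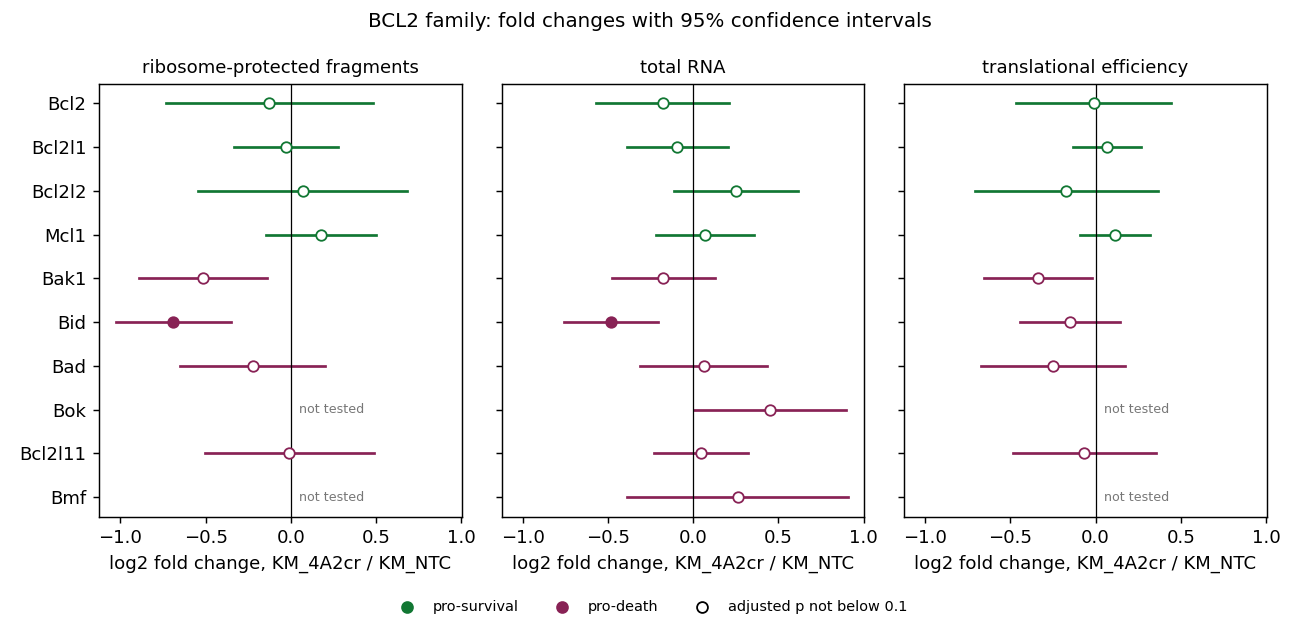
Log2 fold change of KM_4A2cr over KM_NTC for each member in RPFs, total RNA and translational efficiency (points) with 95% confidence intervals (lines), green for pro-survival and purple for pro-death members, filled where the adjusted p by edgeR was below 0.1. *Bid* is the only filled point, at -0.69 in RPFs and -0.48 in total RNA, and *Bok* and *Bmf* were tested in total RNA alone.

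By role, the RPF log2 fold changes of the 4 tested pro-death members were all below 0, from -0.69 to -0.01 with a median of -0.37, although *Bcl2l11* was above 0 without the replicate block (0.08) and without replicate 1 (0.04) or 3 (0.19). Those of the 4 pro-survival members ran from -0.13 to 0.18 with a median of 0.02, and the median over all tested genes was -0.01. In total RNA the median of the same 4 pro-death members was -0.06, with 2 of 4 above 0, against -0.01 for the pro-survival members and 0.01 for all genes. With *Bok* and *Bmf* the total RNA median of the 6 pro-death members was 0.05, with 4 of 6 above 0. Of the 6 pro-death members, 2 are missing from the RPF medians, since *Bok* and *Bmf* did not pass the filter. Of all 10291 genes tested in RPFs, 5262 were below 0. Outside the list, the pro-death genes *Bax*, *Bbc3* and *Pmaip1* had RPF values of 0.36, 0.41 and 0.18, which did not pass the test. Of 9 tested other family and BH3-like genes, 8 were above 0. The medians therefore describe the listed members and not the roles as a whole.

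Each library was also given the difference between the mean log2 CPM of the pro-survival members and that of the pro-death members. This is a description without a test. In RPFs, the difference was 1.17, 1.79, 2.03 and 1.91 in KM_NTC replicates 1 to 4 and 1.09, 2.18, 2.35 and 2.12 in KM_4A2cr. It was higher in KM_4A2cr in 3 of 4 pairs, with a mean change of 0.21 ± 0.20 (SD, n = 4 pairs). With the 8 tested members only, a choice made after seeing the data, the change was 0.36 ± 0.29 and higher in 4 of 4 pairs. In total RNA the difference was 1.45, 2.50, 2.43 and 2.66 in KM_NTC and 1.23, 2.69, 2.50 and 2.64 in KM_4A2cr, with a mean change of 0.00 ± 0.17 and 2 of 4 pairs higher. With the same 8 members the total RNA change was 0.13 ± 0.16 and higher in 3 of 4 pairs. Summed TPM of the pro-survival over that of the pro-death members was 2.01 ± 0.46 in KM_NTC and 2.17 ± 0.61 in KM_4A2cr. The spread between replicates was larger than the change between lines, and replicate 1 was the lowest in both lines and both kinds of library. The TPM ratio holds for the listed members only, whose pro-death sum averaged 132 TPM in KM_NTC and 110 TPM in KM_4A2cr. Left out of that sum are, among others, the pro-death genes *Bax* (96.5 and 87.6 TPM), *Pmaip1* (34.7 and 46.0 TPM) and *Bbc3* (2.16 and 2.78 TPM). Further family and BH3-like genes in neither sum include *Bnip3l* (128 and 118 TPM), *Bcl2l15* (117 and 115 TPM), *Bnip3* (78.2 and 82.0 TPM) and *Bcl2l13* (27.1 and 20.6 TPM).

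**Figure D4:**
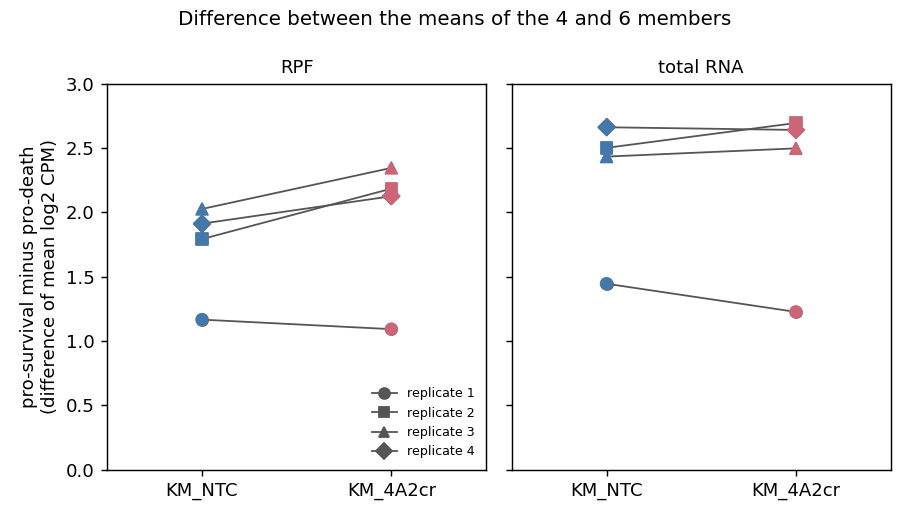
Mean log2 CPM of the 4 pro-survival members minus that of the 6 pro-death members in each library, for RPFs (left) and total RNA (right), with a line for each replicate pair from KM_NTC (blue) to KM_4A2cr (red). In RPFs 3 of 4 pairs rise, in total RNA 2 of 4 do, and replicate 1 lies lowest throughout, at 1.09 to 1.45.

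For 5 members, replicate 4 of both lines lay outside the range of the other replicates in RPFs or total RNA. The share of all genes that did so was not computed, so this count cannot be read as particular to the family. *Mcl1* RPFs were at 118 and 166 CPM in replicate 4 of both lines and at 61.1 to 100.0 CPM in replicates 1 to 3. *Bcl2l11* was highest in replicate 4 too, with 65.9 and 69.6 CPM in total RNA against at most 48.6 CPM elsewhere. *Bid*, *Bak1* and *Bok* had their lowest total RNA there, at 16.4 and 20.3 CPM for *Bid* against 22.9 to 58.1 CPM in the other replicates.

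Translational efficiency, the change of RPFs relative to total RNA in 1 model, was called for 0 of 8 tested members by edgeR, where 2.87% of 9989 genes were called. DESeq2 gave an adjusted p for 2 of the 8 (*Bcl2l1* and *Mcl1*), and 0 of these were called. By edgeR, 1409 of the 9989 genes had an unadjusted p under 0.05, among them 1 of the 8. This was *Bak1*, with a log2 change of -0.34 (SE 0.15, unadjusted p = 0.0364, edgeR adjusted p = 0.308), lower in 4 of 4 pairs. *Bid* had a log2 change of -0.15 (95% confidence interval -0.45 to 0.14), with pair values of 0.15, -0.13, -0.36 and -0.63, so a change of its RPFs beyond that of its mRNA was not detected. *Mcl1* was at 0.11 (-0.09 to 0.32) and *Bcl2l1* at 0.07 (-0.13 to 0.27).

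Isoform shares were compared between the lines as a description, since isoform splits of short reads are uncertain. The transcript on which RPFs were counted took 58.1% ± 1.06 of *Bcl2l1* TPM in KM_NTC and 58.5% ± 1.83 in KM_4A2cr (SD, n = 4). For *Bak1* the shares were 56.8% ± 2.44 and 58.2% ± 3.00, and for *Bcl2l11*, whose splice forms differ in killing strength, 32.9% ± 2.42 and 35.0% ± 4.87. *Bid* and *Mcl1* each had 1 isoform in the tables.

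The 3 members *Bcl2l1*, *Bcl2l11* and *Bmf* lie on chromosome 2, whose genes were shifted as a group. The median log2 fold change of its 831 tested genes was -0.21 in RPFs, and 71.1% of them were below 0. In total RNA the median was -0.17. The part of this shift in the values of these 3 members was not tested. Around *Bid* on chromosome 6, the 20 nearest tested genes had median log2 fold changes of 0.00 in RPFs and 0.02 in total RNA. Around *Bak1* on chromosome 17 the neighbours had a median of 0.15 in RPFs.

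Over 5 lists of the wider apoptosis machinery, 4 of 50 tested genes (8.00%) were called in RPFs, against 10.3% of all genes, and 2 of 54 (3.70%) in total RNA, against 6.13%. By edgeR, 2411 of all 10291 genes tested in RPFs had an unadjusted p under 0.05. The counts were 1995 of 10880 in total RNA and 1409 of 9989 in translational efficiency. Of 16 other BCL2 family and BH3-like genes, 9 were tested in RPFs and 1 was called. *Bnip3*, which encodes a hypoxia-induced mitochondrial protein with a BH3-like stretch and a role in mitophagy, rose from 41.8 ± 13.5 to 55.7 ± 15.7 CPM in RPFs (a log2 change of 0.43, SE 0.12, edgeR adjusted p = 0.0858). Its total RNA did not pass the test (0.17, adjusted p = 0.594). The call was lost in 9 of 12 alternatives, among them DESeq2, no replicate block and leaving out replicate 1, 2 or 3. In total RNA 0 of the 9 were called by edgeR or DESeq2, with 1 at an unadjusted p under 0.05, and 8 of the 9 RPF values were above 0, with a median of 0.18 (0.03 without replicate 4).

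Among the apoptosome, caspases and released mitochondrial factors, 2 of 12 tested genes were called lower in RPFs, where 3.72% of all genes were. In total RNA 1 of 13 was called lower, where 1.78% of all genes were. *Htra2*, encoding a mitochondrial protease that antagonises inhibitors of apoptosis once released, fell from 68.2 ± 23.8 to 44.4 ± 19.0 CPM in RPFs (a log2 change of -0.64, edgeR adjusted p = 0.0832). Its total RNA fell by 0.62 on the log2 scale (edgeR adjusted p = 0.0891). *Parp1*, encoding a DNA repair enzyme cleaved by caspases, fell by 0.43 in RPFs (edgeR adjusted p = 0.0941), and its total RNA value of -0.32 did not pass. DESeq2 called *Htra2* alone in RPFs, and all 3 calls were lost without the replicate block and without replicate 1, 2 or 3.

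Inhibitors of apoptosis, which block caspases or death receptor signalling, had 0 of 5 calls in RPFs by edgeR or DESeq2, with 1 unadjusted p under 0.05, and 1 of 7 in total RNA by edgeR (0 by DESeq2). *Birc2*, encoding the ubiquitin ligase cIAP1, rose by 0.55 in total RNA (SE 0.14, edgeR adjusted p = 0.0701) and had an RPF value of 0.63 (adjusted p = 0.136). Its call was lost without replicate 1, 2 or 3. Of 9 tested genes of death receptors and their complexes, 0 were called in RPFs and 0 in total RNA by edgeR or DESeq2, with 3 and 1 at an unadjusted p under 0.05. Among partners and turnover factors of the family, 1 of 15 was called in RPFs and 0 of 16 in total RNA by edgeR or DESeq2, with 1 at an unadjusted p under 0.05 in each. *Trp53*, encoding the p53 transcription factor that induces several pro-death members, fell from 89.0 ± 37.4 to 63.4 ± 23.8 CPM in RPFs (a log2 change of -0.47, SE 0.12, edgeR adjusted p = 0.0650), with a total RNA value of -0.16. The RPF call was lost without replicate 1, 2 or 3. In translational efficiency, 0 of 50 genes of these 5 lists were called by edgeR, with 0 to 3 per list at an unadjusted p under 0.05, and 0 of the 29 that DESeq2 gave an adjusted p. Without replicate 4, where 33.4% of all RPF genes and 29.8% of all total RNA genes were called, 16 of 50 genes of the 5 lists were called in RPFs and 12 of 53 in total RNA.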

How the data were processed

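The authors deposited RPF counts, whole-number counts per transcript over the coding sequence without its ends, for 8 libraries. Reads had been trimmed with Cutadapt 1.18, aligned with BBmap to the most abundant protein-coding transcript of each gene (GENCODE vM27) and collapsed by molecular identifiers with UMI-tools 1.0.1. The total RNA files deposited by the authors hold expected counts and TPM per isoform from RSEM 1.3.3 after alignment with Bowtie2 2.3.5.1. Versions follow the submitters' processing notes.

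RPF transcripts were joined to 15235 genes, and expected counts were summed per gene and rounded. Genes were filtered with filterByExpr, scaled by TMM and tested in R 4.3.3 with edgeR 4.0.16 (glmQLFit, glmQLFTest) over all genes, with terms for line and replicate and a Benjamini-Hochberg threshold of 0.1. For translational efficiency, 1 model over 16 libraries tested line by kind of library. CPM values are TMM-scaled, with a prior count of 2 for log2 CPM. DESeq2 1.42.0, other scalings, filters, a threshold of 0.05, no block and leaving out each replicate were alternatives. Each fit was tested on simulated data. Numbers pair the libraries: deviations of same-numbered libraries correlated at 0.764, 0.782, 0.575 and 0.687 in RPFs and at 0.756, 0.736, 0.611 and 0.708 in total RNA.

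The members and gene lists were chosen with earlier results of these data known, so list counts are descriptions. Named from the lists are only genes called in RPFs or total RNA, apart from other family genes named by role or level after their values were seen. Each kind of library was scaled on its own, so a change in all footprints or all mRNA leaves no trace. Some items of the labels and marker lists are not reported here.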

Additional observations from a re-analysis of the deposited data

Results flagged for a closer look

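*Bmf* total RNA stood far from its group in replicate 1 of both lines. It was 5.89 CPM in KM_NTC replicate 1 and 42 counts, against 12 to 19 counts in the other 3 libraries, and 10.6 CPM in KM_4A2cr replicate 1 and 65 counts, against 7 to 11 counts. The gap was measured against Dixon's critical value for 4 samples over 40 groups of member values, of which 2 passed it. Chance passes about 1 in 20 such groups. Without replicate 1 the *Bmf* log2 fold change in total RNA was -0.24 in place of 0.26.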

How the results depend on the processing

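Over 323 alternative values of single members with an adjusted p, 285 kept their direction and side of the threshold, 9 lost the call, 4 gained one and 25 changed sign, and 6 efficiency values had no adjusted p by DESeq2. Members called in RPFs numbered 1 in the reported model, 0 without the replicate block and 2 with library sizes only, with upper-quartile factors and with no filter, and ranged from 0 to 2 when each replicate was left out. In total RNA 1 was called, against 0 without the block, with DESeq2 and at a threshold of 0.05, and 0 to 1 with a replicate left out. Without the block no gene of either table was called by edgeR, and 365 and 362 genes had an unadjusted p under 0.05. The cause was not tested. *Bid* stayed below 0 throughout, from -0.83 to -0.58 in RPFs (adjusted p by edgeR or DESeq2 0.00663 to 0.998) and from -0.64 to -0.45 in total RNA (0.00138 to 0.999).

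The values that changed sign were all of members that were not called. Library sizes only, which moved the median of all genes to -0.14 (RPFs) and -0.15 (total RNA), gave -0.07 for *Bcl2l2* RPFs, -0.09, -0.09 and -0.11 for *Mcl1*, *Bad* and *Bcl2l11* total RNA and 0.00 for *Bcl2* efficiency. No block gave 0.08 for *Bcl2l11* RPFs and 0.03 and 0.04 for the efficiencies of *Bcl2* and *Bcl2l11*. Counts of the RPF isoform only gave -0.09 for *Bad*. With each replicate left out in turn, the values ran from -0.39 to 0.01 (*Bcl2*), -0.14 to 0.03 (*Bcl2l1*), -0.05 to 0.31 (*Bcl2l2*) and -0.20 to 0.19 (*Bcl2l11*) in RPFs. In total RNA they ran from -0.34 to 0.04 (*Bcl2*), -0.02 to 0.12 (*Mcl1*), -0.07 to 0.15 (*Bad*), -0.01 to 0.10 (*Bcl2l11*) and -0.24 to 0.44 (*Bmf*), and in efficiency from -0.14 to 0.11 (*Bcl2*) and -0.30 to 0.09 (*Bcl2l11*). Alternatives for genes of the other lists were added after seeing the data, and the RPF calls of *Bnip3*, *Htra2*, *Parp1*, *Trp53* and *Eif4a2* were lost in 9, 5, 6, 5 and 5 of 12 of them.
The balance of both roles in RPFs ran from 0.15 to 0.31 with a replicate left out, and in total RNA from -0.06 to 0.08. The calls of genes in the whole RPF table ran from 32 without replicate 3 to 3469 without replicate 4. In total RNA they ran from 63 without replicate 3 to 3260 without replicate 4. Footprints per codon were not computed. At 4512403 to 9621848 RPF counts a library, *Bok* and *Bmf* did not pass the filter on low counts in RPFs. Neither was called without that filter.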

Other observations

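Other family genes of note by level were chosen after their values were seen. *Bcl2l15* was at 117 ± 29.3 TPM in KM_NTC and 115 ± 39.0 TPM in KM_4A2cr (SD, n = 4). The BH3-like gene *Bnip3l* had a higher mean, at 128 ± 14.6 and 118 ± 12.6 TPM, and *Bnip3* was at 78.2 ± 42.3 and 82.0 ± 46.1 TPM. The effector *Bax* was at 96.5 ± 20.9 and 87.6 ± 13.8 TPM. *Bax* thus stood above *Bak1* in mean TPM, and its RPF log2 fold change of 0.36 did not pass the test (adjusted p = 0.159 by edgeR). The BH3-only gene *Pmaip1* was at 34.7 ± 12.0 and 46.0 ± 26.2 TPM, and *Bbc3* at 2.16 ± 1.12 and 2.78 ± 2.45 TPM. *Bcl2a1a*, *Bcl2a1b*, *Bcl2a1d* and *Bcl2l10* were listed at 0 in every library.

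Of 9989 genes, those whose 8 within-pair log2 ratios (4 in RPFs, 4 in total RNA) followed *Bid* most closely were *AU022252* (Pearson's r 0.966), *Ttk* (0.945) and *Mtg2* (0.944). The 8 ratios come from 8 lysates shared by both kinds of library, and none of the 3 genes was called in either. Pearson's r removes each gene's mean ratio, so it compares the variation between values and not the mean change. *AU022252* had log2 fold changes of 0.03 in RPFs and 0.19 in total RNA, against -0.69 and -0.48 for *Bid*. Those of *Ttk* were -0.59 and -0.41, and those of *Mtg2* were -0.54 and -0.12.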
